A study of Mus musculus with 24 samples.

Results

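D2.1 and D2A1 are mouse mammary tumor cell lines, and the values here come from RNA-seq of the cells grown alone in culture, with no host tissue around them. Members were chosen by their labels: 3 libraries labelled as in vitro cells of line D2.1 and 3 labelled as in vitro cells of line D2A1, 6 of the 24 libraries of the series. The other libraries were tumors that the same lines formed in BALB/c mice (8) or in SCID-beige mice (10). Both lines descend from D2 hyperplastic alveolar nodules of BALB/c mice, and each group is 1 line, so a difference between the groups is a difference between these lines and not between classes of tumor. The labels give no genotype change, drug or time for the cultured cells, and the study's methods give a low-glucose DMEM with serum and antibiotics. How dense the cultures were when RNA was taken is not given in the sources used here.

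D2A1 is used as a model of a mammary tumor that grows out promptly at a distant site, and D2.1 as a model of tumor cells that stay dormant there for a long time. Cells of a mammary carcinoma can hold epithelial features, such as keratins and cell junctions, and mesenchymal ones, such as collagen and actin bundles, in varied mixtures. A contrast of the pure cultures asks which genes already differ between the lines before a host adds its own cells, vessels and signals.

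The libraries held 16837260 to 24818234 counts over 35275 listed genes. Markers of leukocytes, endothelium, adipocytes and red cells were near 0, and none had enough counts to be tested. Their summed levels ran from 0.519 to 1.73 CPM (counts scaled to a common library size) for 12 leukocyte genes. They ran from 0.0533 to 0.762 CPM for 6 endothelial genes, 0.0567 to 1.55 CPM for 6 adipocyte genes and 0.109 to 0.746 CPM for 4 red cell genes. Skeletal muscle markers summed to 4.25 to 6.02 CPM in D2.1 and 1.28 to 2.36 CPM in D2A1. Of these 6 muscle genes, 3 were tested and 1 was higher in D2.1 by the test below. Fibroblast markers were plentiful in both lines and are given with the collagens. Of 20 luminal and 18 basal mammary epithelial markers, 12 and 10 had enough counts for testing, with Krt5 listed at 0 in every library. The third library of each line stood apart. On the second principal component, which held 7.73% of the variance, the number 3 libraries lay at -34.9 (D2.1) and -32.2 (D2A1) and the other libraries between 13.8 and 19.4, while the first component, with 86.7%, separated the lines. Nothing in the labels says that samples of a line came from separate cultures, so p-values measure the spread between these samples, which may be technical. With 3 against 3 samples an exact permutation test cannot go below 0.1, and the tests below are therefore those of 1 model across all genes.

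The lines differed widely. Levels are given as CPM of the libraries in order of their number, and differences as log2 fold changes, D2.1 minus D2A1, ± standard error (SE). A gene was called where edgeR's quasi-likelihood test gave a Benjamini-Hochberg adjusted p under 0.05, and 5602 of 12489 tested genes were called (44.9%), 3023 higher in D2.1 (24.2%) and 2579 lower (20.7%). Without the number 3 libraries, 7810 of 12621 tested genes were called, 4051 higher and 3759 lower. The share called changed little with level, from 43.15% of genes with a mean of at least 100 CPM to 48.97% of genes between 5 and 20 CPM. Most called differences were modest, with a median size of 0.995 on the log2 scale, and the large ones leaned to D2.1: 656 called genes were higher by more than 3 (log2) and 286 were lower by more than 3. Together those 656 genes took 3.73% to 4.29% of the scaled counts of a D2.1 library against 0.191% to 0.256% in D2A1, and the 286 genes took 0.594% to 0.642% in D2A1 against 0.0187% to 0.0214% in D2.1. At the silent end, 48 genes with at least 5 CPM in D2A1 had 3 counts or fewer in every D2.1 library, and 24 genes showed the opposite. In bulk RNA a lower level per cell and fewer cells that express a gene cannot be told apart.

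**Figure D1:**
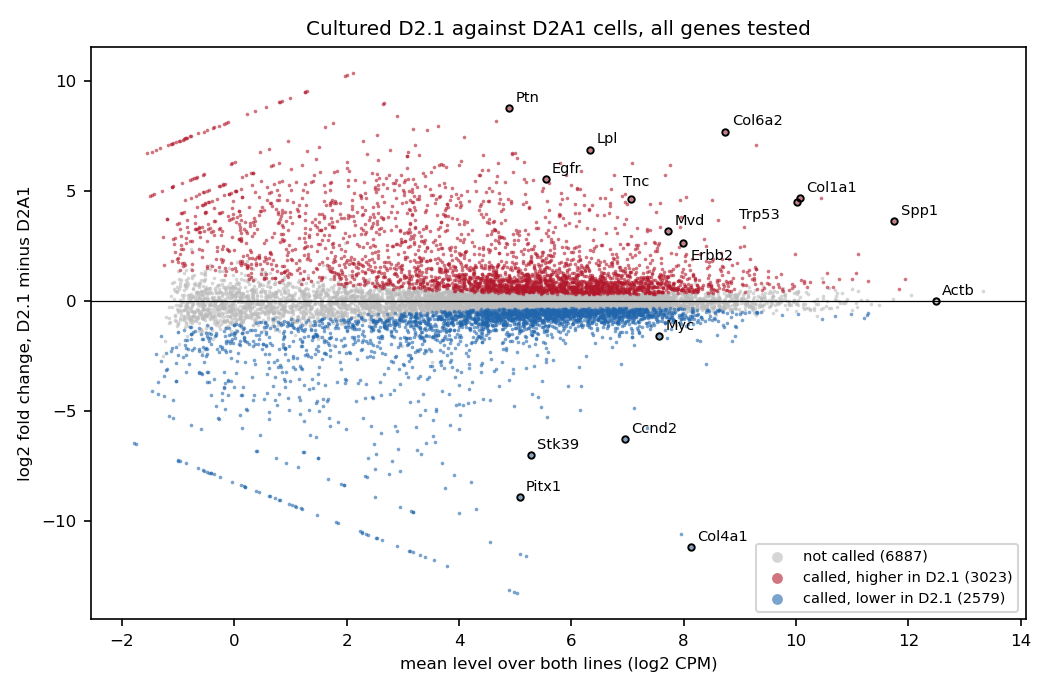
Each point is 1 of the 12489 tested genes, with its mean level over both lines (log2 CPM) on the horizontal axis and the log2 fold change, D2.1 minus D2A1, on the vertical axis; red marks the 3023 genes called higher in D2.1, blue the 2579 called lower and grey the rest. The spread above the line is denser beyond 3 than the spread below it, Col4a1 is the deepest labelled fall and Actb lies on the line.

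The largest differences are given for protein-coding genes with at least 20 CPM in the higher line and more than 3 counts in at least 1 library of the lower line. Genes that were far higher in D2.1 included several of lipid handling and of the pericellular matrix. Prelp, a leucine-rich proteoglycan of connective tissue, stood at 27.4, 33.5 and 89.7 CPM in D2.1 and 0.346, 0.0567 and 0.107 CPM in D2A1, a log2 fold change of 8.17 ± 0.71, edgeR adjusted p = 3.5e-05. A4galt, the glycosyltransferase that makes the glycolipid Gb3, measured 33.3, 37.9 and 30.2 CPM in D2.1 and 0.173, 0.340 and 0.0533 CPM in D2A1 (7.45 ± 0.35, edgeR adjusted p = 1.3e-06). The lines were fully separated for both, and Prelp was highest in the number 3 library of D2.1. Lpl, lipoprotein lipase, measured 161, 206 and 113 CPM in D2.1 and 1.73, 1.42 and 0.959 CPM in D2A1 (6.87 ± 0.31, edgeR adjusted p = 1.1e-06). Pparg, a nuclear receptor that drives fat storage genes, was at 51.4, 45.3 and 30.7 CPM in D2.1 and 0.634, 0.454 and 0.213 CPM in D2A1 (6.61 ± 0.35, edgeR adjusted p = 2.3e-06). Both of these lipid genes were at a few CPM or less in every D2A1 library, and adipocyte markers were near 0 in both lines, as given above. The rest of the 12 largest rises within these limits were in Ptn (8.76), Lcn2 (7.95), Col6a2 (7.69), Col6a1 (7.09), Adgrl2, a latrophilin adhesion receptor (6.72), Afap1l2, an adaptor of Src kinases (6.71), Olfm2, a secreted olfactomedin protein (6.66), and Ccdc80, a secreted matrix-binding protein (6.502). Lcn2, a lipocalin that binds iron-carrying siderophores, was uneven within D2.1, at 38.9, 32.2 and 2.57 CPM, and was lowest in the number 3 library.

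Within the same limits the deepest falls exceeded the largest rises. Col4a1 and Col4a2 encode the chains of the main type IV collagen of basement membranes. Col4a1 stood at 0.109, 0.354 and 0.214 CPM in D2.1 and 492, 478 and 714 CPM in D2A1 (-11.19 ± 0.34, edgeR adjusted p = 4.3e-07). Col4a2 measured 0.490, 0.310 and 0.161 CPM in D2.1 and 437, 426 and 628 CPM in D2A1 (-10.58 ± 0.33, edgeR adjusted p = 4.3e-07). Every D2.1 library was at the edge of detection for a collagen that was plentiful in every D2A1 library. Pitx1, a homeodomain transcription factor of hindlimb identity, was at 0.0544, 0.0885 and 0.268 CPM in D2.1 and 72.3, 75.9 and 54.8 CPM in D2A1 (-8.91 ± 0.34, edgeR adjusted p = 6.3e-07). Stk39, a kinase that controls cation-chloride cotransporters, measured 0.435, 0.620 and 0.697 CPM in D2.1 and 75.4, 82.04 and 73.7 CPM in D2A1 (-7.02 ± 0.20, edgeR adjusted p = 4.1e-07). Ccnd2, cyclin D2, which drives entry into the cell cycle, was at 2.67, 3.63 and 3.11 CPM in D2.1 and 220.3, 213.3 and 300.2 CPM in D2A1 (-6.28 ± 0.21, edgeR adjusted p = 4.5e-07). In none of these did a D2.1 library come near the D2A1 range. The rest of the 12 largest falls within these limits were in Cpne8, a calcium-dependent membrane-binding protein (-8.22), Bend4 (-7.92), Mboat2, a lysophospholipid acyltransferase (-7.36), Mapt, the microtubule protein tau (-6.44), Trim54, a muscle RING-finger protein (-6.41), Ogdhl, a relative of 2-oxoglutarate dehydrogenase (-6.13), and Tbc1d16, a Rab GTPase-activating protein (-5.81). All 24 of these rises and falls kept their call when any 1 library was left out.

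Col4a1 and Col4a2 lie head to head on chromosome 8 and are transcribed away from each other. In GRCm38.p6 the annotated starts are at 11312826 on the minus strand and 11312805 on the plus strand, so the starts share the 22 bases chr8:11312805-11312826, printed here on the plus strand because the genes with the 2 deepest of these falls both begin in it.
Col4a1-Col4a2 start interval: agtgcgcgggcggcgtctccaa
Other basement membrane genes did not all follow this pair. Of 14 tested members of the list, Col4a1 and Col4a2 included, 4 rose, 5 fell and 5 were not called, with a median log2 fold change of -0.03. Without the number 3 library of D2A1, or the number 1 or number 2 library of D2.1, that median was 0.0066, 0.11 and 0.061. The laminin chain Lamb2 stood at 107, 103 and 121 CPM in D2.1 and 51.9, 53.3 and 56.8 CPM in D2A1 (1.04 ± 0.12, edgeR adjusted p = 0.00015). The laminin chain Lamc1, named after its values were seen, was not called at 257, 283 and 369.5 CPM in D2.1 and 306, 306 and 421 CPM in D2A1 (-0.18, edgeR adjusted p = 0.46). Lamb2 and Lamc1 thus did not share the near loss of Col4a1 and Col4a2.

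**Figure D2:**
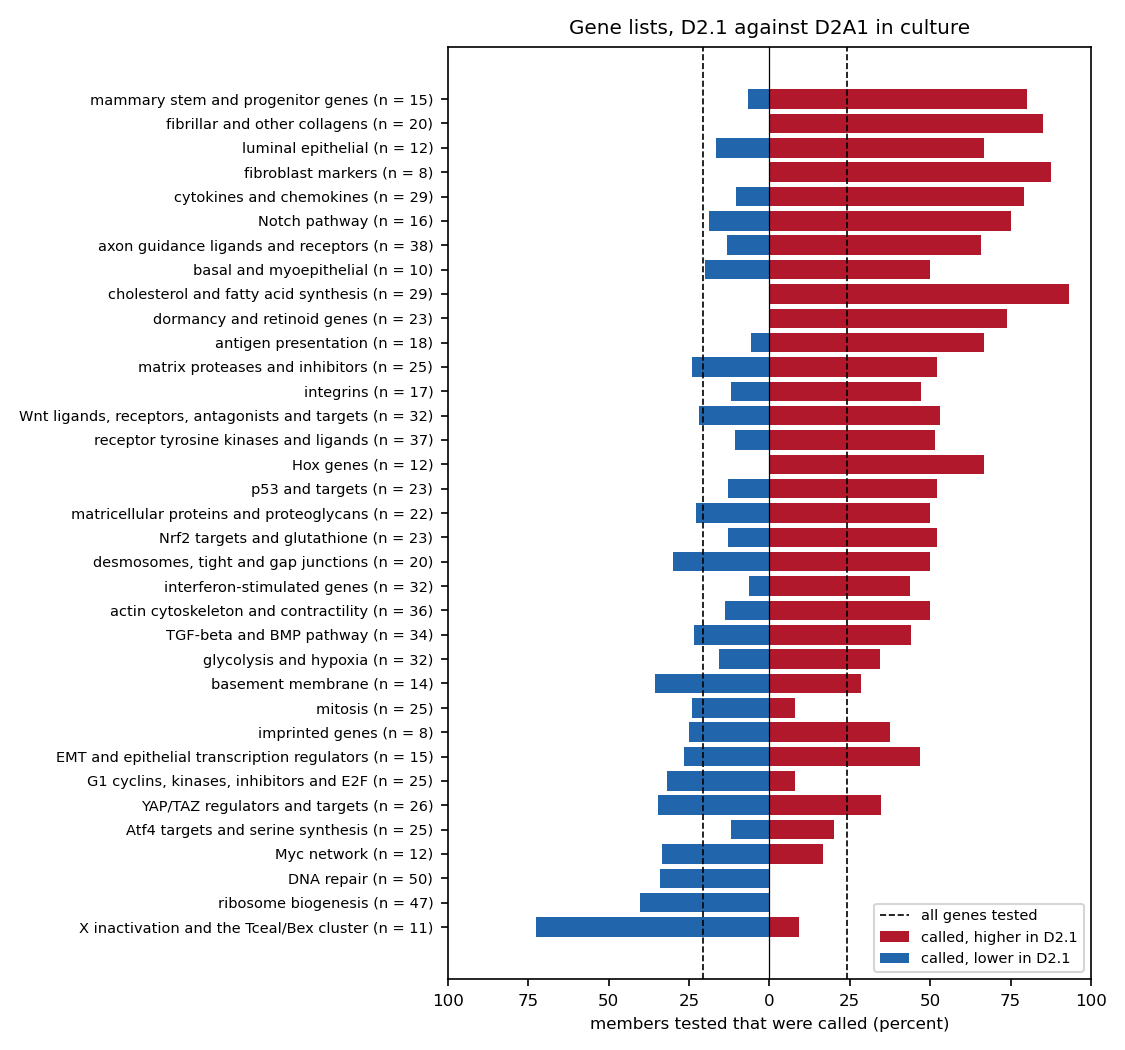
For each gene list the bars give the percent of tested members called higher (right, red) and called lower (left, blue) in D2.1, and the dashed lines give the shares over all 12489 tested genes, 24.2% and 20.7%. Cholesterol and fatty acid synthesis, fibroblast markers and the list of collagens and their modifying genes reach furthest to the right. Ribosome biogenesis and DNA repair have no member called higher.

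The list of fibrillar and other collagens ran the other way. It also holds genes that modify, crosslink or fold collagen, such as Lox, Plod1, P4ha1 and Serpinh1. Of 20 tested members of the list, 17 rose, none fell and 3 were not called, with a median log2 fold change of 3.37 against -0.02 for all tested genes. Col6a1, Col6a2 and Col6a3 encode the 3 common chains of type VI collagen, a beaded-filament collagen around cells. Col6a1 stood at 1182, 1174 and 1358 CPM in D2.1 and 9.86, 8.85 and 8.52 CPM in D2A1 (7.09 ± 0.18, edgeR adjusted p = 3.8e-07). Col6a2, its neighbor on chromosome 10, measured 875, 852 and 835 CPM in D2.1 and 3.92, 5.67 and 2.82 CPM in D2A1 (7.69 ± 0.27, edgeR adjusted p = 4.9e-07). Col6a3 was at 424, 439 and 411 CPM in D2.1 and 6.34, 6.81 and 4.31 CPM in D2A1 (6.19 ± 0.20, edgeR adjusted p = 4.3e-07). All 3 chains rose by more than 6 on the log2 scale, from a D2A1 level under 10 CPM. Col1a1, the major chain of type I collagen, stood at 1762, 1883 and 2544 CPM in D2.1 and 93.6, 85.3 and 65.99 CPM in D2A1 (4.66 ± 0.24, edgeR adjusted p = 1.9e-06). Its partner chain Col1a2 measured 5.61, 5.84 and 3.91 CPM in D2.1 and 0.865, 1.02 and 0.373 CPM in D2A1 (2.76 ± 0.39, edgeR adjusted p = 0.00053). Per length, in the deposited FPKM values, the mean D2.1 level of Col1a1 was 335 and that of Col1a2 was 0.909, and the D2A1 means were 14.3 and 0.146. Thus Col1a2 was the minor transcript in both lines, although both chains belong to 1 collagen. Col3a1, type III collagen, was at 24.4, 27.1 and 10.4 CPM in D2.1 and 0.519, 0.681 and 0 CPM in D2A1 (5.69 ± 0.67, edgeR adjusted p = 0.00019). Col5a3, a type V chain, measured 319.9, 329 and 545 CPM in D2.1 and 8.71, 7.83 and 6.39 CPM in D2A1 (5.70 ± 0.27, edgeR adjusted p = 1.5e-06). Markers of fibroblasts, 3 of which are these collagens, also leaned to D2.1, with 7 of 8 tested genes higher and none lower and summed levels of 6590.3 to 7984 CPM in D2.1 and 3540.5 to 4488 CPM in D2A1. The part of other cells in the collagen values was not tested.

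Matricellular proteins, which lie in the matrix and signal to cells, moved in both directions. Of 22 tested members, 11 rose and 5 fell. Cyr61, Ctgf, Nov, Wisp1 and Wisp2 of this list were not found under those names and were not counted. Tnc, tenascin C, stood at 222, 240.2 and 308 CPM in D2.1 and 9.46, 8.79 and 12.6 CPM in D2A1 (4.64 ± 0.20, edgeR adjusted p = 1e-06). Spp1, osteopontin, measured 8157, 6833 and 4135 CPM in D2.1 and 542, 543 and 453 CPM in D2A1 (3.64 ± 0.29, edgeR adjusted p = 2e-05). Both were higher in all D2.1 libraries, and Spp1 was lowest in the number 3 library of each line. Fbln5, a fibulin of elastic fibers, was at 26.1, 23.5 and 19.9 CPM in D2.1 and 0.231, 0.397 and 0.373 CPM in D2A1 (6.09 ± 0.26, edgeR adjusted p = 9.3e-07). Its relative Fbln1 stood at 0 CPM in all 3 D2.1 libraries and 11.8, 14.01 and 9.16 CPM in D2A1, at least 76.6-fold lower in D2.1 against a level of 3 counts per library. The fibulins thus split between the lines, with no count of Fbln1 in D2.1. Of 25 tested proteases and inhibitors of the matrix, 13 rose (52.0%) and 6 fell (24.0%, near the share of all tested genes). Mmp10, stromelysin 2, was at 0 CPM in all 3 D2.1 libraries and 12.8, 12.3 and 12.1 CPM in D2A1, at least 81.3-fold lower in D2.1. Adam12, a membrane-bound metalloprotease, measured 0.109, 0.177 and 0.161 CPM in D2.1 and 5.77, 6.64 and 8.63 CPM in D2A1 (-5.48 ± 0.36, edgeR adjusted p = 6.7e-06). Both proteases were silent or nearly so in every D2.1 library.

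Integrins, the receptors that bind matrix, were called higher more often than lower in D2.1. Of 17 tested members, 8 rose, 2 fell and 7 were not called, and 5 fell either with the replicate number as a block or without the number 3 libraries. Itga7, a laminin receptor chain, stood at 181, 173 and 218.7 CPM in D2.1 and 14.5, 12.9 and 8.47 CPM in D2A1 (3.995 ± 0.22, edgeR adjusted p = 2.7e-06). Itga11, a collagen receptor chain, measured 5.99, 7.66 and 20.7 CPM in D2.1 and 0.0577, 0.170 and 0.373 CPM in D2A1 (5.76 ± 0.70, edgeR adjusted p = 0.00023). Itga6, another laminin receptor chain, was at 19.7, 20.6 and 26.6 CPM in D2.1 and 57.4, 53.6 and 76.1 CPM in D2A1 (-1.49 ± 0.18, edgeR adjusted p = 0.00028). So the laminin receptors divided, with Itga7 higher and Itga6 lower in every D2.1 library.

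The most uniform list was cholesterol and fatty acid synthesis. Sterol synthesis runs from acetyl-CoA through mevalonate and squalene to cholesterol, and its enzymes are transcribed together under the SREBP factors. Of 29 tested members of the list, 27 rose and none fell, against 24.2% of all tested genes called higher, with a median log2 fold change of 1.40. The count was 28 without the number 3 libraries or with the replicate number as a block, and 25 to 28 when 1 library was left out. Hmgcs1, which makes HMG-CoA at the head of the route, stood at 427, 456 and 332 CPM in D2.1 and 72.2, 65.9 and 87.6 CPM in D2A1 (2.43 ± 0.17, edgeR adjusted p = 1.1e-05). Mvd, which forms isopentenyl diphosphate, measured 469, 356 and 316 CPM in D2.1 and 49.5, 41.02 and 35.2 CPM in D2A1 (3.18 ± 0.20, edgeR adjusted p = 5.6e-06). Fdft1, squalene synthase, was at 243, 259.9 and 145 CPM in D2.1 and 59.3, 57.5 and 47.1 CPM in D2A1 (1.98 ± 0.22, edgeR adjusted p = 0.00015). The lines did not overlap for any of these, and each D2.1 library was more than 2 times the highest D2A1 library. The members without a call were Sqle and Acaca. Sqle, squalene epoxidase, was at 313, 348 and 273 CPM in D2.1 and 352, 346 and 395 CPM in D2A1 (-0.23, edgeR adjusted p = 0.21). Acaca, acetyl-CoA carboxylase, was at 189.7, 237 and 216.7 CPM in D2.1 and 162, 165 and 196 CPM in D2A1 (0.30, edgeR adjusted p = 0.11). Sqle, which acts directly after Fdft1, was the only tested member with a negative value.

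**Figure D3:**
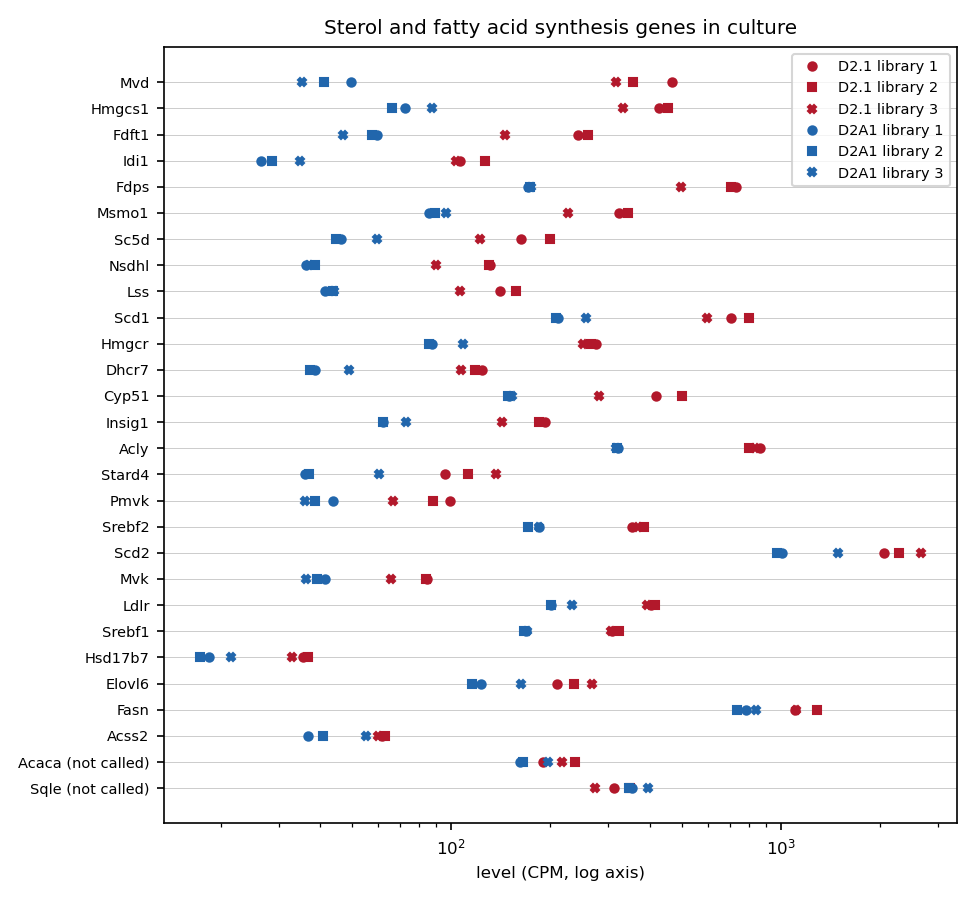
Level of 28 of the 29 tested genes of cholesterol and fatty acid synthesis in the 6 culture libraries, in CPM on a log axis, with circles, squares and crosses for library 1, 2 and 3 of each line. The D2.1 points (red) lie to the right of the D2A1 points (blue) for all genes shown except Sqle and Acaca, whose points overlap.

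Promoter sequence was available for part of this list. RefSeq promoters, 250 bases before to 50 bases after a start, matched 17 of its 30 genes and 7217 of 11525 tested protein-coding genes. The letters CCAAT, the core of the NF-Y site, were searched on both strands and occurred in 15 of the 17 (88.2%), against 39.75% of the 7217 tested promoters and 38.22% of 22862 promoters in all. Of the matched and called genes of the list whose 250 upstream bases held no annotated exon, the 4 with the largest rise are shown so that the placement can be seen. Each sequence is the 250 bases before the start in GRCm38.p6, on the strand of the gene, with CCAAT or its complement ATTGG in capitals. Mvd is at chr8:122443423-122443672 (minus strand), Hmgcs1 at chr13:119690101-119690350 (plus), Sc5d, a sterol desaturase, at chr9:42264301-42264550 (minus) and Acly, which makes cytosolic acetyl-CoA, at chr11:100528001-100528250 (minus).
Mvd: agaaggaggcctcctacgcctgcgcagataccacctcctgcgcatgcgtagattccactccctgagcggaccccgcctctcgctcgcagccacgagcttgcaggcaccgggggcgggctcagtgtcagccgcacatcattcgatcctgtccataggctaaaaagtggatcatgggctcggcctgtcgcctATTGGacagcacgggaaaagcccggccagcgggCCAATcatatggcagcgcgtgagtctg
Hmgcs1: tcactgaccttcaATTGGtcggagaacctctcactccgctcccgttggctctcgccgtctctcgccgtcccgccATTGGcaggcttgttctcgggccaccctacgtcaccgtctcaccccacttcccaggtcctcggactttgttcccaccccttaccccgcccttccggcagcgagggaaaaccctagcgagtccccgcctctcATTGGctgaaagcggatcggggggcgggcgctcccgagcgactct
Sc5d: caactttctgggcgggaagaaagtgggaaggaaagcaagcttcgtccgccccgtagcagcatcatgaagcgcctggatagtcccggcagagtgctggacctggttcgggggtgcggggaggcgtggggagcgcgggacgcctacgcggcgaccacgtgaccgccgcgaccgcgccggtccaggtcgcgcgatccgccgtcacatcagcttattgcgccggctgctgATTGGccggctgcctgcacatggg
Acly: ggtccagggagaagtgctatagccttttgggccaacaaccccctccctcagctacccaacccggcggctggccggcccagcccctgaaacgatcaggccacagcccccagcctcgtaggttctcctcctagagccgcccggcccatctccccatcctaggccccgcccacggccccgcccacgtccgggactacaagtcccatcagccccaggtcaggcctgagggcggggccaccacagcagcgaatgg
Mvd held matches 60 and 27 bases before the start, Hmgcs1 at 237, 176 and 45 bases, Sc5d at 24 bases, and Acly none in this window. Sc5d stood at 163, 199 and 122 CPM in D2.1 and 46.1, 44.7 and 59.6 CPM in D2A1 (1.69). Acly measured 866, 802 and 832 CPM in D2.1 and 321, 318 and 316 CPM in D2A1 (1.39). These last genes were chosen for their place in this order, after their values were seen, and the one with no match was also higher in every D2.1 library. A match is a description of the letters, and binding was not measured.

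Receptors of the epidermal growth factor family rose in D2.1, and their ligands moved in both directions. These receptors pair with each other on ligand binding, and Erbb3 relies on its partners for kinase activity. Egfr stood at 78.5, 93.4 and 102 CPM in D2.1 and 2.999, 1.76 and 1.23 CPM in D2A1 (5.52 ± 0.29, edgeR adjusted p = 2.3e-06). Erbb3 measured 171, 157 and 229.7 CPM in D2.1 and 7.32, 8.51 and 6.07 CPM in D2A1 (4.67 ± 0.21, edgeR adjusted p = 1.1e-06). Erbb2 was at 390.4, 428 and 484 CPM in D2.1 and 74.3, 72.4 and 65.5 CPM in D2A1 (2.62 ± 0.14, edgeR adjusted p = 2e-06). Each D2.1 library was above each D2A1 library for all 3 receptors, and Erbb4 had too few counts for testing. Ereg, the ligand epiregulin, stood at 0, 0.0443 and 0 CPM in D2.1 and 12.6, 13.4 and 8.095 CPM in D2A1, at least 74.7-fold lower in D2.1. Hbegf, a heparin-binding ligand, measured 204, 179 and 157 CPM in D2.1 and 51.2, 55.4 and 30.4 CPM in D2A1 (1.98 ± 0.23, edgeR adjusted p = 0.00017). Tgfa, transforming growth factor alpha, was at 9.25, 13.3 and 13.9 CPM in D2.1 and 28.95, 24.1 and 37.7 CPM in D2A1 (-1.31 ± 0.22, edgeR adjusted p = 0.0015). Hbegf and Tgfa were named after their values were seen, and neither overlapped between the lines. Across 37 tested receptor tyrosine kinases and ligands, 19 rose and 4 fell, and 7 fell with the replicate block and 8 without the number 3 libraries. Pdgfra, a platelet-derived growth factor receptor, stood at 56.6, 63.2 and 75.8 CPM in D2.1 and 4.73, 5.62 and 10.8 CPM in D2A1 (3.20 ± 0.30, edgeR adjusted p = 5.5e-05).

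Guidance, Notch and Wnt genes, which carry signals between neighboring cells, also leaned to D2.1. Of 38 tested axon guidance ligands and receptors, 25 rose and 5 fell, with a median log2 fold change of 1.69. Robo2, a Slit receptor, stood at 3.27, 4.69 and 12.4 CPM in D2.1 and 0, 0.0567 and 0 CPM in D2A1, at least 40.4-fold higher in D2.1. Sema4d, a membrane semaphorin, went against the list at 1.47, 1.86 and 2.305 CPM in D2.1 and 40.9, 40.9 and 41.4 CPM in D2A1 (-4.45 ± 0.19, edgeR adjusted p = 9.3e-07). Of 16 tested Notch pathway genes, 12 rose (75.0%) and 3 fell (18.8%). Notch4 measured 539, 445 and 540.3 CPM in D2.1 and 24.1, 22.5 and 11.5 CPM in D2A1 (4.71 ± 0.29, edgeR adjusted p = 4.7e-06). Notch3 was at 9.64, 10.7 and 32.96 CPM in D2.1 and 0.346, 0.284 and 1.28 CPM in D2A1 (4.77 ± 0.68, edgeR adjusted p = 0.00061). Hey2, a transcription factor induced by Notch, stood at 10.9, 10.98 and 9.49 CPM in D2.1 and 0.634, 0.681 and 0.692 CPM in D2A1 (3.95 ± 0.24, edgeR adjusted p = 4.1e-06). Notch3 was highest in the number 3 library of each line, and no line overlapped the other for these genes. Lfng, a glycosyltransferase that modifies Notch receptors, went against the list at 6.64, 4.56 and 7.83 CPM in D2.1 and 32.9, 30.2 and 27.00 CPM in D2A1 (-2.25 ± 0.22, edgeR adjusted p = 6.1e-05). Of 32 tested Wnt pathway genes, 17 rose (53.1%) and 7 fell (21.9%, near the share of all tested genes), and the ligands named here split. Wnt5a, which signals mainly without beta-catenin, measured 5.77, 6.28 and 7.397 CPM in D2.1 and 0.173, 0.170 and 0.107 CPM in D2A1, at least 38.7-fold higher in D2.1. Wnt4 was at 0.544, 0.708 and 0.911 CPM in D2.1 and 18.8, 20.5 and 31.2 CPM in D2A1 (-5.01 ± 0.30, edgeR adjusted p = 4.5e-06). Rnf43, a ubiquitin ligase that removes Wnt receptors, stood at 0.163, 0.221 and 0.0536 CPM in D2.1 and 6.23, 6.07 and 6.66 CPM in D2A1 (-5.34 ± 0.39, edgeR adjusted p = 1.2e-05). Wnt4 and Rnf43 were under 1 CPM in every D2.1 library.

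In the TGF-beta and BMP pathway 15 of 34 tested genes rose and 8 fell, and 5 fell without the number 2 library of D2.1. Fst, follistatin, which binds activins, measured 142, 134 and 95.5 CPM in D2.1 and 16.6, 13.4 and 5.65 CPM in D2A1 (3.39 ± 0.36, edgeR adjusted p = 0.00011). Inhbb, an activin subunit, was at 7.46, 8.23 and 12.1 CPM in D2.1 and 1.096, 0.908 and 0.479 CPM in D2A1 (3.48 ± 0.35, edgeR adjusted p = 8.5e-05). Smad9, a signal transducer of BMP receptors, stood at 0.381, 0.664 and 1.13 CPM in D2.1 and 7.21, 7.15 and 11.9 CPM in D2A1 (-3.59 ± 0.40, edgeR adjusted p = 0.00015). A ligand subunit and an inhibitor of its dimers were thus both higher in D2.1.

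**Figure D4:**
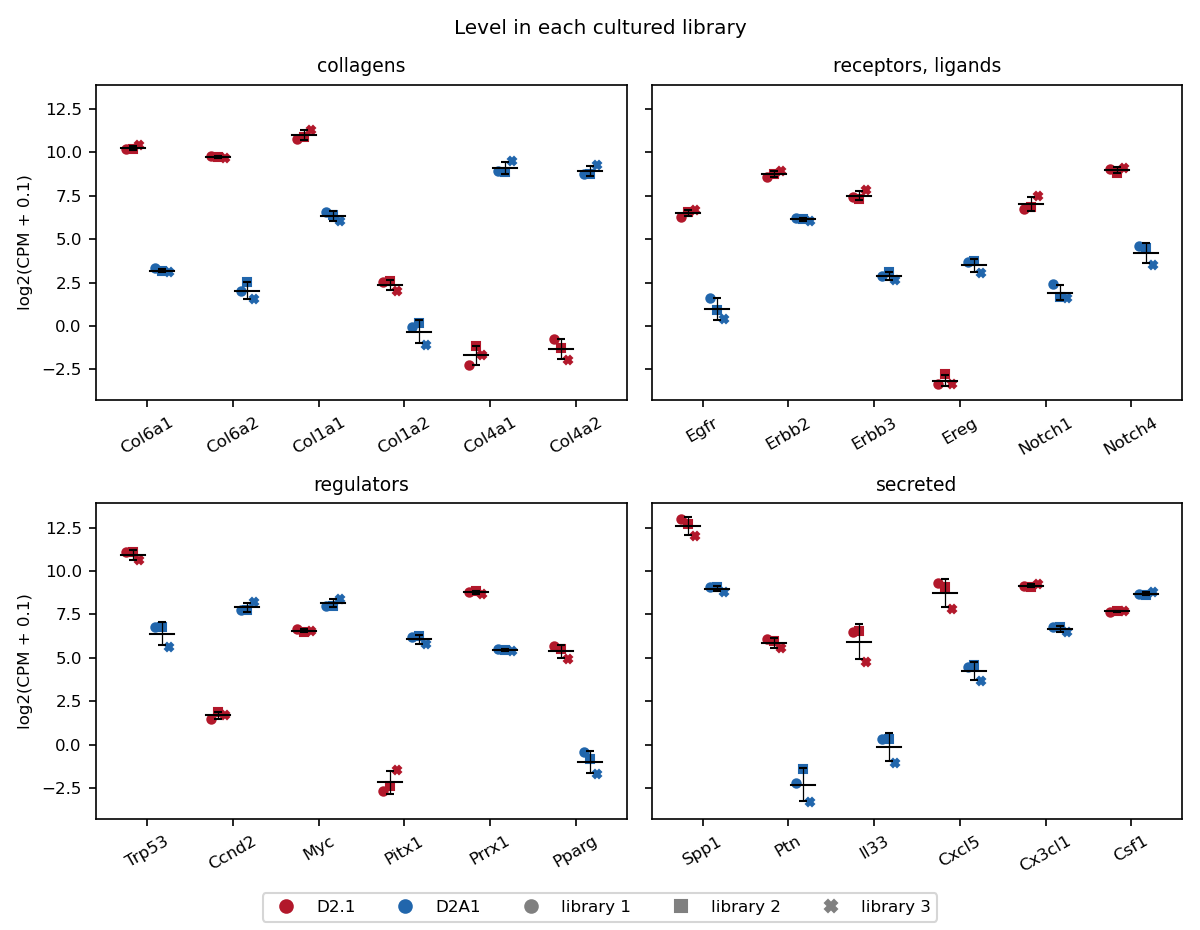
Level of 24 genes in each culture library, as log2 of CPM plus 0.1, with red points for the 3 D2.1 libraries, blue points for the 3 D2A1 libraries, horizontal bars for the mean of each line and error bars for its SD. The type VI collagens, Egfr and Trp53 lie higher in D2.1, while Col4a1, Ccnd2 and Myc lie higher in D2A1, with no overlap between the lines.

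Secreted immune signals were higher in D2.1. Of 29 tested cytokines, chemokines and their receptors, 23 rose and 3 fell, with a median log2 fold change of 2.48. Il33, an alarmin of the interleukin 1 family, stood at 88.7, 95.2 and 27.01 CPM in D2.1 and 1.15, 1.13 and 0.373 CPM in D2A1 (6.31 ± 0.60, edgeR adjusted p = 5.6e-05). Ccl2, a monocyte chemokine, measured 61.4, 33.1 and 27.98 CPM in D2.1 and 0.634, 0.908 and 0.746 CPM in D2A1 (5.73 ± 0.38, edgeR adjusted p = 7.4e-06). The lines did not overlap for either, though the D2.1 libraries differed among themselves by more than 2 times. Cxcl12, a chemokine of stromal cells, went the other way at 0 CPM in all 3 D2.1 libraries and 10.9, 10.2 and 7.78 CPM in D2A1, at least 63.2-fold lower in D2.1. Leukocyte markers were near 0 in the same libraries, as given above.

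In the antigen presentation list 12 of 18 tested genes rose and 1 fell, and the count of rises was 7 without the number 1 or the number 2 library of D2.1. Tapbp, the tapasin chaperone that loads class I molecules, stood at 318, 323 and 347 CPM in D2.1 and 121, 114 and 128 CPM in D2A1 (1.44 ± 0.12, edgeR adjusted p = 2e-05). H2-Q4, a class I gene that may share reads with close copies, measured 33.8, 24.2 and 18.01 CPM in D2.1 and 6.69, 6.87 and 2.13 CPM in D2A1 (2.28 ± 0.41, edgeR adjusted p = 0.0022). H2-K1, a classical class I gene that may also share reads with close copies such as H2-K2, was at 25.7, 26.2 and 15.2 CPM in D2.1 and 12.3, 12.4 and 8.04 CPM in D2A1 (1.03 ± 0.26, edgeR adjusted p = 0.011). The call of H2-K1 was lost without the number 2 library of D2.1 (0.91). B2m, the shared light chain of class I molecules, named after its values were seen, was not called at 505, 314 and 301 CPM in D2.1 and 341, 334 and 289 CPM in D2A1 (0.22, edgeR adjusted p = 0.43). Cd274, the checkpoint ligand PD-L1, was lower at 3.43, 2.700 and 1.45 CPM in D2.1 and 5.13, 4.88 and 7.24 CPM in D2A1 (-1.19 ± 0.34, edgeR adjusted p = 0.021). Its call was lost without the number 3 library of D2A1 (-0.99) or the number 2 library of D2.1 (-1.23). Of 32 interferon-stimulated genes, 14 rose (43.8%) and 2 fell (6.2%), 23 rose without the number 3 libraries and 4 fell with the replicate block. Mx1, an antiviral GTPase, stood at 21.8, 19.7 and 10.5 CPM in D2.1 and 0.634, 0.738 and 0.905 CPM in D2A1 (4.50 ± 0.35, edgeR adjusted p = 1.9e-05). Ifi27, a mitochondrial interferon-induced protein, measured 56.7, 46.9 and 29.00 CPM in D2.1 and 112, 115 and 78.03 CPM in D2A1 (-1.20 ± 0.25, edgeR adjusted p = 0.0045). Both were lowest in the number 3 library of D2.1 within that line.

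Trp53, which encodes the tumor suppressor p53, was far higher in D2.1. It stood at 2196, 2203 and 1574 CPM in D2.1 and 111, 108 and 48.7 CPM in D2A1, a log2 fold change of 4.48 ± 0.35, edgeR adjusted p = 1.9e-05. Every D2.1 library exceeded the highest D2A1 library by more than 10 times, and the number 3 library was the lowest of each line. In the list of p53 and its targets 12 of 23 tested genes rose and 3 fell, and 5 fell with the replicate block, without the number 3 library of D2.1 or without both number 3 libraries. Phlda3, an inhibitor of Akt, measured 163, 163 and 137 CPM in D2.1 and 18.2, 18.2 and 10.97 CPM in D2A1 (3.29 ± 0.21, edgeR adjusted p = 6.1e-06). Eda2r, a receptor of the TNF family, was at 9.53, 11.2 and 3.16 CPM in D2.1 and 0.346, 0.113 and 0.160 CPM in D2A1 (5.24 ± 0.63, edgeR adjusted p = 0.00022). Cdkn1a, the cell cycle inhibitor p21, named after its values were seen, was at 11.3, 10.7 and 3.698 CPM in D2.1 and 9.92, 9.02 and 6.66 CPM in D2A1 (0.01, edgeR adjusted p = 0.98). The lines overlapped for Cdkn1a and not for the other targets named. Whether the Trp53 transcript carried a sequence change was not analysed here.

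Regulators of the start of the cell cycle were more often lower than higher in D2.1, while mitosis genes fell in a share near that of all tested genes. Of 25 tested regulators, 2 rose (8.0%) and 8 fell (32.0%), against 24.2% and 20.7% of all tested genes. The count of falls was 4 or 5 when the number 1 or number 2 library of either line was left out. The count of rises was 1 without the number 1 library of either line or the number 2 library of D2A1, 4 with the replicate block and 6 without the number 3 libraries. Ccnd2 had the deepest fall, as given above. Cdkn2b, the inhibitor p15, went against the list at 47.9, 48.1 and 89.1 CPM in D2.1 and 14.2, 13.7 and 20.3 CPM in D2A1 (1.94 ± 0.28, edgeR adjusted p = 0.00064). E2f6, an E2F repressor, stood at 27.5, 28.5 and 23.5 CPM in D2.1 and 86.6, 91.5 and 74.7 CPM in D2A1 (-1.67 ± 0.14, edgeR adjusted p = 2.5e-05). Both were separated between the lines, and Cdkn2b was highest in the number 3 library of each line. In the Myc network 2 of 12 tested genes rose (16.7%) and 4 fell (33.3%). The count of rises there was 0 without the number 1 or the number 2 library of D2A1 and 1 without the number 1 or the number 3 library of D2.1. Myc measured 99.8, 90.9 and 93.9 CPM in D2.1 and 256, 258 and 341 CPM in D2A1 (-1.59 ± 0.15, edgeR adjusted p = 4.7e-05). Its partner Max was at 75.3, 66.6 and 62.4 CPM in D2.1 and 99.7, 104 and 98.7 CPM in D2A1 (-0.57 ± 0.12, edgeR adjusted p = 0.0042). Mxi1, an antagonist of Myc, stood at 9.53, 10.2 and 11.3 CPM in D2.1 and 31.1, 30.3 and 31.3 CPM in D2A1 (-1.58 ± 0.14, edgeR adjusted p = 3.5e-05). Mxd4, another antagonist of Myc, went against the list at 46.6, 47.05 and 148 CPM in D2.1 and 10.8, 10.8 and 36.96 CPM in D2A1 (2.04 ± 0.60, edgeR adjusted p = 0.023). Its call was lost without the number 1 or number 2 library of D2A1 (1.74 and 1.75) or the number 3 library of D2.1 (1.26). The activator and its partner were thus lower in D2.1, and the antagonists named differed in direction. Of 25 mitosis genes, 2 rose, 6 fell (24.0%, against 20.7% of all tested genes) and 17 were not called, with a median log2 fold change of -0.10. No mitosis gene rose without the number 1 library of either line or the number 2 library of D2A1, and 4 rose without the number 3 libraries. Their count of falls was 3 without the number 1 library of D2A1 or the number 2 library of D2.1.

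Ribosome biogenesis genes, which make and process ribosomal RNA, moved in 1 direction. None of 47 tested members rose and 19 fell (40.4%, against 20.7% of all tested genes), with a median of -0.43. The count of falls was 10 without the number 1 or the number 2 library of D2A1, 33 with the replicate number as a block and 34 without the number 3 libraries. Imp4, a subunit of the small-subunit processome, stood at 47.4, 49.5 and 41.97 CPM in D2.1 and 105, 107 and 84.1 CPM in D2A1 (-1.09 ± 0.14, edgeR adjusted p = 0.00029). Nop56, a core protein of box C/D particles, measured 329, 352 and 185 CPM in D2.1 and 669, 671 and 421 CPM in D2A1 (-1.02 ± 0.27, edgeR adjusted p = 0.015). The number 3 library was the lowest of its line for both. Ncl, nucleolin, was at 1779, 2252 and 1173 CPM in D2.1 and 3335, 3279 and 2422 CPM in D2A1 (-0.80 ± 0.26, edgeR adjusted p = 0.035), and its call was lost without the number 1 or number 2 library of D2A1 (-0.72 and -0.73) or the number 1 library of D2.1 (-0.81).

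Of 50 tested DNA repair genes, none rose and 17 fell, and 28 fell with the replicate block or without the number 3 libraries. The count of rises was 1 with the block or without the number 3 library of D2A1, and 2 without both number 3 libraries. Xrcc1, the scaffold of single-strand break repair, stood at 36.1, 35.7 and 35.1 CPM in D2.1 and 82.9, 86.7 and 68.9 CPM in D2A1 (-1.16 ± 0.13, edgeR adjusted p = 0.00014). Parp1, which senses strand breaks, measured 174, 197 and 187 CPM in D2.1 and 396, 401 and 369 CPM in D2A1 (-1.06 ± 0.12, edgeR adjusted p = 0.00015). Brca2, of homologous recombination, was at 24.9, 32.04 and 22.1 CPM in D2.1 and 57.8, 54.01 and 49.4 CPM in D2A1 (-1.03 ± 0.16, edgeR adjusted p = 0.0011). Each was lower in every D2.1 library than in any D2A1 library.

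Junction genes split by gene. Of 20 tested members, 10 rose and 6 fell. Pkp1, a plakophilin of desmosomes, stood at 304, 335 and 329 CPM in D2.1 and 18.8, 17.3 and 9.27 CPM in D2A1 (4.42 ± 0.26, edgeR adjusted p = 4.1e-06). Dsp, desmoplakin, measured 85.2, 104 and 133 CPM in D2.1 and 7.15, 7.21 and 9.05 CPM in D2A1 (3.78 ± 0.21, edgeR adjusted p = 2.6e-06). Cgn, cingulin of tight junctions, was at 1.96, 2.52 and 2.14 CPM in D2.1 and 65.4, 55.6 and 61.6 CPM in D2A1 (-4.77 ± 0.17, edgeR adjusted p = 4.5e-07). The desmosome genes Pkp1 and Dsp were higher in every D2.1 library, and Cgn was higher in every D2A1 library. Luminal epithelial markers rose in 8 of 12 tested genes and fell in 2, with summed levels of 2399 to 4732 CPM in D2.1 and 143 to 355 CPM in D2A1, and basal markers rose in 5 of 10 and fell in 2. After thinning to the smallest library no luminal marker was called lower. Of 15 tested mammary stem and progenitor genes, 12 rose (80.0%) and 1 fell (6.7%). Its members Sox9, Cd74, Id4, Nrg1, Ptn and Cd200 had been reported by the study as higher in cultured D2.1 from these data. That count of rises is therefore no independent support. Ly6a, the surface antigen Sca-1, stood at 46.3, 26.4 and 7.83 CPM in D2.1 and 0.404, 0.227 and 0.533 CPM in D2A1 (6.08 ± 0.73, edgeR adjusted p = 0.00023). Dkk3, a secreted protein of the dickkopf family, was at 3.05, 3.32 and 1.34 CPM in D2.1 and 0 CPM in all 3 D2A1 libraries, at least 15.3-fold higher in D2.1. Dkk3 had no count in D2A1 and a low level in D2.1.

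Actin and contractility genes rose in 18 of 36 tested members and fell in 5, with 3 falls without the number 1 library of D2.1, 9 with the replicate block and 8 without the number 3 libraries. Acta2, smooth muscle actin, stood at 228, 253 and 146 CPM in D2.1 and 14.99, 15.8 and 13.6 CPM in D2A1 (3.82 ± 0.22, edgeR adjusted p = 3.6e-06). Gsn, the actin-severing gelsolin, measured 439.7, 413 and 537 CPM in D2.1 and 31.5, 31.1 and 34.8 CPM in D2A1 (3.83 ± 0.15, edgeR adjusted p = 6.3e-07). Fhl2, a LIM protein of actin fibers, was at 19.5, 16.7 and 11.95 CPM in D2.1 and 53.98, 53.8 and 28.6 CPM in D2A1 (-1.50 ± 0.28, edgeR adjusted p = 0.0024). Acta2 and Gsn were higher in every D2.1 library, while Fhl2 was lower in every one. Among transcription factors of mesenchymal and epithelial state, 7 of 15 tested rose and 4 fell. Prrx1, a mesenchymal homeodomain factor, stood at 442, 469 and 418 CPM in D2.1 and 45.6, 44.5 and 41.3 CPM in D2A1 (3.34 ± 0.13, edgeR adjusted p = 5.5e-07). Zeb1, a repressor of epithelial genes, was at 11.8, 10.5 and 8.25 CPM in D2.1 and 28.5, 28.3 and 34.4 CPM in D2A1 (-1.57 ± 0.18, edgeR adjusted p = 0.00015). Prrx1 and Zeb1 therefore moved in opposite directions. In the list of YAP/TAZ regulators and targets 9 of 26 tested genes rose and 9 fell. The targets Ctgf and Cyr61 of this list were not found under those names and were not counted. Ccdc80, given above among the largest rises, is also a member of this list. Foxf2, a forkhead factor, was at 0.871, 0.929 and 0.482 CPM in D2.1 and 20.99, 22.4 and 26.7 CPM in D2A1 (-4.92 ± 0.26, edgeR adjusted p = 2.3e-06). Gli2, a transcription factor of Hedgehog signaling, measured 0 CPM in all 3 D2.1 libraries and 17.9, 16.5 and 17.1 CPM in D2A1, at least 113-fold lower in D2.1.

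Metabolic and stress lists held rises and falls, with falls in a smaller share than over all tested genes. Of 32 tested genes of glycolysis and hypoxia, 11 rose (34.4%, against 24.2%) and 5 fell (15.6%, against 20.7%). The count of falls was 8 with the replicate block. Car9, a carbonic anhydrase induced in low oxygen, stood at 40.8, 35.2 and 38.3 CPM in D2.1 and 0.750, 0.851 and 1.01 CPM in D2A1 (5.44 ± 0.19, edgeR adjusted p = 4.5e-07). Egln3, a prolyl hydroxylase that is itself induced in low oxygen, measured 0.381, 0.0443 and 0.0536 CPM in D2.1 and 17.5, 19.2 and 23.2 CPM in D2A1 (-6.98 ± 0.47, edgeR adjusted p = 8e-06). These hypoxia genes thus went opposite ways with no overlap in either. Of 23 tested targets of Nrf2, the regulator of antioxidant genes, 12 rose (52.2%) and 3 fell (13.0%). The count of falls was 1 without the number 1 or the number 2 library of D2A1. Aldh3a1, an aldehyde dehydrogenase, was at 174, 172 and 81.2 CPM in D2.1 and 7.497, 7.55 and 5.65 CPM in D2A1 (4.37 ± 0.32, edgeR adjusted p = 1.3e-05). Gclm, a subunit of the enzyme that starts glutathione synthesis, stood at 133, 128 and 97.1 CPM in D2.1 and 199, 199 and 169 CPM in D2A1 (-0.66 ± 0.15, edgeR adjusted p = 0.0067). In the list of Atf4 targets 5 of 25 tested genes rose and 3 fell. Both shares were under those of all tested genes, 24.2% higher and 20.7% lower. The count of falls was 5 by DESeq2, 8 without the number 3 libraries and 9 with the replicate block. Ddit4, an inhibitor of mTORC1, measured 343, 229 and 312 CPM in D2.1 and 33.3, 29.6 and 28.7 CPM in D2A1 (3.27 ± 0.18, edgeR adjusted p = 2.6e-06). Stc2, a secreted glycoprotein of the stress response, was at 4.46, 4.87 and 1.34 CPM in D2.1 and 15.5, 17.6 and 15.4 CPM in D2A1 (-2.18 ± 0.39, edgeR adjusted p = 0.0021). Ddit4 and Stc2, both Atf4 targets, moved in opposite directions.

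Positional and retinoid genes separated the lines as well. Of 12 tested Hox genes, which record position along the body axis, 8 rose and none fell. Hoxa9 stood at 42.95, 37.3 and 38.5 CPM in D2.1 and 2.25, 2.099 and 1.54 CPM in D2A1 (4.33 ± 0.19, edgeR adjusted p = 9.8e-07). Hoxc6 measured 10.3, 9.87 and 9.22 CPM in D2.1 and 0.807, 0.227 and 0.107 CPM in D2A1 (4.68 ± 0.49, edgeR adjusted p = 0.0001). Both were higher in every D2.1 library. Among genes of dormancy and retinoid handling 17 of 23 tested rose and none fell. Cyp26b1, which degrades retinoic acid, was at 26.7, 35.1 and 11.8 CPM in D2.1 and 1.21, 1.02 and 0.479 CPM in D2A1 (4.77 ± 0.48, edgeR adjusted p = 8.6e-05). Crabp2, which carries it to the nucleus, stood at 13.4, 10.3 and 6.86 CPM in D2.1 and 0.923, 1.19 and 0.479 CPM in D2A1 (3.56 ± 0.39, edgeR adjusted p = 0.00013). A gene of retinoid removal and a gene of its delivery were thus both higher in D2.1, and both were lowest in the number 3 library of each line.

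Of 8 tested imprinted genes, 3 rose and 2 fell. Snrpn and Peg13 of this list were not found under those names and were not counted. The median of this list was -0.14, and it was 0.18 without the number 2 library of D2A1 and 0.017 without the number 3 library of D2.1. Peg3, expressed from the paternal copy, stood at 0 CPM in all 3 D2.1 libraries and 11.8, 9.87 and 22.7 CPM in D2A1, at least 97.3-fold lower in D2.1. Mest, also expressed from the paternal copy, measured 2.72, 2.92 and 3.002 CPM in D2.1 and 12.1, 15.7 and 8.63 CPM in D2A1 (-2.07 ± 0.26, edgeR adjusted p = 0.00028). Zrsr1, a paternally expressed gene that lies inside another gene and may share its reads, was at 27.3, 26.7 and 24.3 CPM in D2.1 and 0.750, 0.511 and 0.852 CPM in D2A1 (5.20 ± 0.22, edgeR adjusted p = 9.3e-07). So Peg3 and Mest were lower in D2.1, and Zrsr1, whose reads are uncertain, was higher. Which parental copy these lines express was not measured. Xist, the RNA that coats the inactive X chromosome, stood at 216.1, 222 and 271 CPM in D2.1 and 709.8, 581.9 and 880.2 CPM in D2A1 (-1.61 ± 0.19, edgeR adjusted p = 0.00018), with its antisense partner Tsix at 2 counts or fewer in each library and the strand of the counting not given in the sources used here. Of 11 tested genes of X inactivation and of the Tceal and Bex cluster, 1 rose (9.1%) and 8 fell (72.7%). Tceal8, a small protein of the TFIIS-like family, stood at 0 CPM in all 3 D2.1 libraries and 68.2, 64.7 and 56.2 CPM in D2A1, at least 414-fold lower in D2.1. Bex3, a small adaptor protein of the cluster, measured 151, 127 and 126 CPM in D2.1 and 287, 298 and 229 CPM in D2A1 (-1.01 ± 0.15, edgeR adjusted p = 0.0006).

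Differences were not spread evenly over the chromosomes. Chromosome 15 had the highest median log2 fold change of its tested protein-coding genes, 0.61, with 257 of 460 genes higher in D2.1 and 49 lower. Chromosome 10 followed at 0.52, with 289 of 557 higher and 32 lower. Chromosome 12 was lowest at -0.55, with 49 of 408 higher and 206 lower, followed by chromosome 1 at -0.35 and X at -0.27. Without the number 3 libraries the medians of chromosomes 15, 10 and 12 were 0.62, 0.54 and -0.50. Erbb3, Col6a1 and Col6a2 lie on chromosome 10, Hoxc6 and A4galt on 15, and E2f6 and Max on 12, yet Myc on 15 and Fbln5 on 12 moved against their chromosome. The tumors held the same signs for these 3 chromosomes, with medians of 0.34 and 0.39 (chromosome 15), 0.40 and 0.49 (10) and -0.43 and -0.27 (12) in BALB/c and SCID-beige hosts. In 568 blocks of 20 neighboring genes, the middle 90% of block medians lay between -0.49 and 0.61. The lowest block was chr12:3247428-8016835, at -0.95, and the highest was chr15:100761747-102331873, at 1.02. A block at chr14:69029238-70582688 reached 0.98 in culture, with 13 of 20 genes higher and none lower, but 0.12 and -0.01 in the tumors. Genome copy number was not measured in these libraries.

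**Figure D5:**
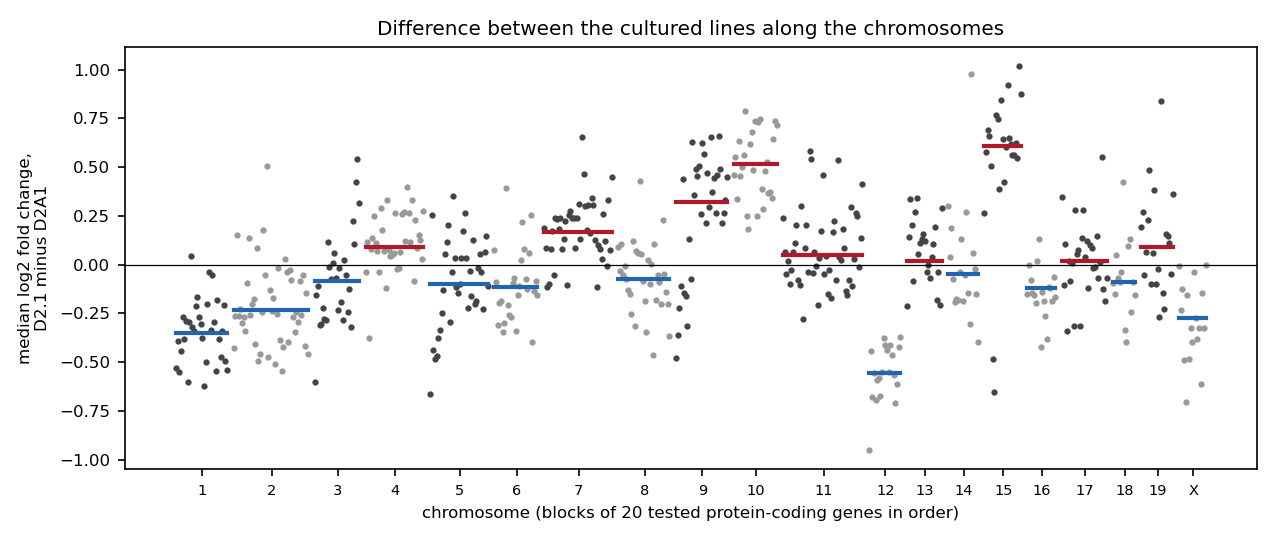
Each point is the median log2 fold change (D2.1 minus D2A1, culture) of a block of 20 tested protein-coding genes that follow each other on a chromosome, and each bar is the median over the whole chromosome, red where positive and blue where negative. The bars of chromosomes 15 and 10 lie highest, at 0.61 and 0.52, and that of chromosome 12 lowest, at -0.55, with all of its blocks under 0.

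Promoters of the genes with the largest differences held fewer CG dinucleotides, with a median of 12 in 317 promoters of genes higher by more than 3 (log2) and 19 in 154 promoters of genes lower by more than 3, against 22 over all 7217 tested. CCGGAAGT, an ETS site common in promoters of housekeeping genes, was found in 0.95% and 1.95% of these promoters against 9.33% over all tested. TATAAA was found in 11.99% and 9.09% against 6.46%, and GGAATG, the TEAD site, in 19.2% and 18.8% against 11.75%. CACCTG, the E-box bound by Snai and Zeb factors, was found in 20.19% of promoters of genes far higher in D2.1 and 30.5% of those far lower, against 16.5%. All motifs were counted on both strands, and over all 22862 promoters of the table the shares were 3.95% for CCGGAAGT, 14.8% for TATAAA, 14.6% for GGAATG and 20.02% for CACCTG. These shares are descriptions and were not tested.

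The culture contrast was carried only in part into tumors, which hold host cells and share no library with the cultures. D2.1 and D2A1 tumors differed in 32.6% of tested genes in BALB/c hosts and in 32.1% in SCID-beige hosts. Of 5397 genes called in culture and tested in both hosts, 1776 (32.91%) were called in that direction in both, and 126 (2.33%) in the opposite direction in both. Of 6539 genes not called in culture, 738 (11.29%) were called in a common direction in both hosts. Trp53 differed by 5.48 in BALB/c and 5.71 in SCID-beige tumors (edgeR adjusted p = 3e-07 and 1.1e-09) on the log2 scale. Erbb3 differed by 5.81 in BALB/c and 7.34 in SCID-beige tumors (edgeR adjusted p = 1.2e-06 and 1e-09). Pitx1 also held its direction, at -6.68 in BALB/c and -7.46 in SCID-beige tumors (edgeR adjusted p = 2.3e-05 and 2.7e-05). Each of these kept in both hosts the direction seen in culture. Col4a1, which vessels and other host tissue also express, was at -1.89 in BALB/c and -3.01 in SCID-beige tumors (edgeR adjusted p = 0.00024 and 2e-06). In tumors the sterol list had no uniform direction, with 4 of 29 tested members higher and 7 lower in BALB/c tumors, and 7 higher and 1 lower in SCID-beige tumors. Mvd was at 3.93 in BALB/c and 3.78 in SCID-beige tumors (edgeR adjusted p = 2.6e-05 and 1.4e-07). Hmgcs1 was at -0.19 in BALB/c and 0.48 in SCID-beige tumors (edgeR adjusted p = 0.49 and 0.14). Mvd was thus called in both hosts and Hmgcs1 in neither. Peg3, with no count in cultured D2.1, was at -0.51 in BALB/c and -0.80 in SCID-beige tumors (edgeR adjusted p = 0.45 and 0.4). Spp1, higher in cultured D2.1, was at -1.60 in BALB/c and -0.59 in SCID-beige tumors (edgeR adjusted p = 0.00025 and 0.11). Antigen presentation genes, which host immune cells also express, were higher in 15 of 23 and 19 of 23 tested members, with none lower in either host. Ribosome biogenesis genes were lower in 29 and 19 of 47, with none higher. Whether the difference itself changed between culture and tumor was not tested.

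Of the 10 called genes with the highest mean CPM, Spp1, Fn1, mt-Cytb, Fth1, Pkm, Rpsa and Eef2 were higher in D2.1 and Ftl1, Ncl and Tubb5 were lower. Pkm, a pyruvate kinase gene whose isoforms these counts do not separate, stood at 5375, 5946 and 4337 CPM in D2.1 and 2860.4, 2970.3 and 2083 CPM in D2A1 (0.98 ± 0.22, edgeR adjusted p = 0.0061). Fth1, the ferritin heavy chain, measured 3004, 2869 and 2314 CPM in D2.1 and 1338, 1386 and 1378 CPM in D2A1 (0.997 ± 0.17, edgeR adjusted p = 0.0015). Ftl1, the ferritin light chain, was at 2004, 2190.5 and 1902 CPM in D2.1 and 2808, 2909 and 3076 CPM in D2A1 (-0.53 ± 0.16, edgeR adjusted p = 0.026). The ferritin chains thus differed in direction, and the call of Ftl1 was lost when any library of D2A1 or the number 1 library of D2.1 was left out, with log2 fold changes of -0.56 to -0.49. Calls were also lost for Eef2 when any library except the number 3 library of D2.1 was left out (0.43 to 0.61), for mt-Cytb without the number 2 library of D2.1 (0.93), and for Tubb5 without the number 1 library of either line or the number 2 library of D2A1 (-0.68 to -0.61). Genes with a mean of at least 100 CPM and the smallest differences were Rtraf, Phf23, Strn4, Tead1 and Capza1, each at 0.00 on the log2 scale. Tead1, a DNA-binding partner of YAP and TAZ, stood at 161, 167 and 199.6 CPM in D2.1 and 157, 145 and 225 CPM in D2A1. Capza1, an actin-capping protein, measured 249, 283 and 256 CPM in D2.1 and 241, 255 and 292 CPM in D2A1. The lines overlapped for both, and Tead1 was highest in the number 3 library of each line.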

How the data were processed

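RNA was sequenced from 3 cultured samples of D2.1, 3 cultured samples of D2A1 and 18 tumors of these lines. The authors deposited raw read counts per gene in separate tables for cells and tumors, and FPKM values that they computed per gene length and sequencing depth, with STAR and mm10 named in the submitters' processing notes and versions and strand not given in the sources used here. The tumor FPKM table was not used. Gene names and coordinates came from GENCODE M21 (GRCm38), which named 34490 of 35275 genes, and promoter sequences from RefSeq (GRCm38.p6).

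Samples were grouped by their labels. Counts of the 6 culture libraries were filtered with filterByExpr, scaled by TMM and tested with the robust quasi-likelihood test of edgeR 4.0.16 (R 4.3.3), with adjustment by Benjamini and Hochberg over 12489 genes and a threshold of 0.05. SE is the size of the log2 fold change divided by the square root of F. Tumors of each host were tested by themselves. CPM use the TMM-scaled library sizes. A gene with 3 counts or fewer in every library of a line was given a bound against 3 counts per library, 0.133 to 0.173 CPM and averaged over the line, which covers counting error only. FPKM served to set levels of different genes side by side. Fits were tested on simulated data. Tables and plots were made with pandas 2.3.3 and matplotlib 3.10.9.

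Alternatives were DESeq2 (1.42.0), its size factors, other filters, thinning, a replicate block, a fold threshold and leaving out libraries. The sample titles number the libraries of each line, and same-numbered libraries deviated together from their line means (correlations of 0.332, 0.184 and 0.491). Yet number 1 of D2.1 was as close to number 2 of D2A1 (0.357), and number 2 of D2.1 to number 1 of D2A1 (0.181). The labels do not say that a shared number marks a shared batch. The blocked fit treated same-numbered libraries as paired, as an alternative only. The libraries and the 41 gene lists were chosen with earlier results of these data known. Several lists hold genes that the study had reported as higher in cultured D2.1. Genes were named by rule: the 12 largest rises and 12 largest falls of protein-coding genes with at least 20 CPM in the higher line, no overlap and a measurable lower line, up to 4 members of each list with at least 5 CPM, no overlap and the largest change plus the largest that went against the list, genes of interest to the study in culture, the 10 called genes with the highest mean CPM, and 5 steady genes. Others are said to be named after their values were seen, or are members given as not called. Some results of single genes are not reported here.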

Additional observations from a re-analysis of the deposited data

Results flagged for a closer look

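Stc2, which encodes the secreted glycoprotein stanniocalcin 2, differed in direction between culture and tumors. In culture all D2.1 libraries were below all D2A1 libraries, at 4.46, 4.87 and 1.34 CPM in D2.1 and 15.5, 17.6 and 15.4 CPM in D2A1, a log2 fold change of -2.18 (edgeR adjusted p = 0.0021). In BALB/c tumors and in SCID-beige tumors all D2.1 libraries were above all D2A1 libraries, with log2 fold changes of 1.38 and 1.19. It drew notice because every sample of one setting moved against every sample of the other, and the difference between culture and tumor was not tested. Stc2 was not alone, since 126 of 5397 genes called in culture were called the opposite way in both hosts. Aldh3a1, also named above, was at 4.37 in culture, -1.55 in BALB/c tumors and -1.65 in SCID-beige tumors (edgeR adjusted p = 1.3e-05, 0.03 and 0.0094).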

How the results depend on the processing

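The count of called genes stayed within 1.5 times of 5602 under all alternatives with the same threshold: 5603 with DESeq2 size factors, 5867 with no filter, 5623 with a minimum of 10 counts, 5548 after thinning to the smallest library, and 5991 by DESeq2. Leaving out 1 culture gave 4375 to 5908 called genes, 2433 to 3259 higher and 1942 to 2649 lower. A log2 fold change beyond 1 as a further condition left 2786. With the replicate number as a block, a pairing that the labels do not give, the fit called 7539 genes (3828 higher and 3711 lower). It kept 5582 of the 5602 calls and took away no call of a gene named by rule. In the sterol list 28 genes were called higher with the block against 27 without it. Sqle or Acaca, given above as not called, thus gained a call. The count of culture calls with the same direction in both hosts ranged from 1579 to 1882 when 1 library was left out, was 2049 without the number 3 cultures (an alternative chosen after seeing the data) and 2582 with the block, where tumor numbers in SCID-beige hosts did not pair the samples. Over 184 named genes and 13 alternatives, no called gene reversed its direction, and 13 genes lost their call in at least 1 alternative. Steady genes, which were not called, did change sign. With 1 library left out, Tead1 ran from -0.12 to 0.22 and Capza1 from -0.063 to 0.082. Of 481 list medians under alternatives, 448 moved by less than the spread between replicates, and those of basement membrane and imprinted genes changed sign in 5. At a depth of 16837260 to 24818234 counts, levels under about 0.173 CPM could not be told from 0.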
